A study of Mus musculus with 14 samples.

Results

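The 9 genes described here encode receptors for extracellular nucleotides in the muscle wall of the mouse gut: the P2X channel subunits P2rx1, P2rx4, P2rx5 and P2rx7 and the P2Y receptors P2ry1, P2ry2, P2ry6, P2ry12 and P2ry14. They were listed by name, and P2ry14 and P2rx5 were chosen by their measured bulk counts, because the difference between the groups labelled KO and WT ran in opposite directions in colon and jejunum. They are 9 of 40481 genes in the bulk count table, and all 9 passed the filter on low counts that left 20886 genes for testing. Bulk RNA of hand-dissected muscularis, the muscle layers with their nerves and serosa, was sequenced in 12 libraries from C57BL/6 mice, 3 in each of 4 groups: colon and jejunum of the genotype labelled Carmn iKO (KO below) and of the genotype labelled WT mTmG (WT below, carrying the mTmG reporter allele). Nuclei of colonic muscularis were profiled in 1 further library per genotype. The labels used here give no age, treatment or sex, do not say in which cells or by which driver Carmn was deleted, and do not say whether libraries came from single or pooled animals, so the p-values measure the spread between these libraries.

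P2X receptors are cation channels opened by ATP, whereas P2Y receptors are coupled to G proteins and respond to ATP, ADP, UTP, UDP or UDP-sugars. In the gut wall, purines released by inhibitory motor neurons relax the muscle, largely through P2Y1 on Pdgfra-positive interstitial cells, where the receptor opens small-conductance potassium channels. P2X7, P2X4, P2Y6, P2Y12 and P2Y14 are known chiefly from immune cells and glia, and P2Y2 from epithelium.

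Total counts were 24254905 to 44315104 per bulk library. Carmn itself did not follow the label in the bulk table: it was at 304 to 718 counts per 1000000 (CPM) in KO colon against 171 to 351 in WT colon, and at 817 to 996 CPM in KO jejunum against 206 to 326 in WT jejunum (edgeR adjusted p = 0.234 and 0.0646). The labels do not say which part of Carmn was deleted, so the bulk values cannot check them, and "KO" below means the libraries labelled so. In the nuclei, Carmn was at 661 CPM of nuclear UMIs in the WT library and 220 in the KO library. On the first 2 principal components, KO colon library t4 and KO jejunum library m1 stood apart from the rest. All 8 smooth muscle markers had counts in every group.

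The stretches of DNA upstream of 4 of the genes are shown. Of these, 3 had open chromatin over their start in the nuclei libraries, as had P2rx1 (WT only) and P2ry2, which are not shown. The other, P2ry14, was listed for its pattern by genotype. P2rx4 (chr5:122707294-122707543, plus strand) and P2ry1 (chr3:61002535-61002784, plus strand) had a called accessible region over their start in both nuclei libraries, P2rx7 (chr5:122643677-122643910, plus strand) in WT, and P2ry14 (chr3:59153619-59153742, minus strand) in neither. Sequences are from RefSeq on GRCm38.p6, end at the annotated start of the gene or before it, run 5′ to 3′ on the gene's strand, and carry matched motifs in capitals.
P2rx4: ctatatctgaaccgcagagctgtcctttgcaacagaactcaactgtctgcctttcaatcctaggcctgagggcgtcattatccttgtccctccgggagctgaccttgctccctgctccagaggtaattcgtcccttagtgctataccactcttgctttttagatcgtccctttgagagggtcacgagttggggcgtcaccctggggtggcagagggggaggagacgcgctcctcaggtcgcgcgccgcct
P2rx7: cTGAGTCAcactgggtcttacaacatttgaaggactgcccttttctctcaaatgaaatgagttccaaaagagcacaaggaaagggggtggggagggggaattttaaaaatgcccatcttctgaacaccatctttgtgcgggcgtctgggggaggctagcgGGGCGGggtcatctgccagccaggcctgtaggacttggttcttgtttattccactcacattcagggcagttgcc
P2ry1: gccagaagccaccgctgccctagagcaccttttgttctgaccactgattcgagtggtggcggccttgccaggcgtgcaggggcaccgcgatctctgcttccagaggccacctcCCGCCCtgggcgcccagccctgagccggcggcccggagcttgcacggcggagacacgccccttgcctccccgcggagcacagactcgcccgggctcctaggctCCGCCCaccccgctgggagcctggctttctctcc
P2ry14: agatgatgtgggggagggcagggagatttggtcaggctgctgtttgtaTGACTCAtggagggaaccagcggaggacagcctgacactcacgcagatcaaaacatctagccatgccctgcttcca
The motifs searched on both strands in the 250 bases before each RefSeq start were the AP-1 site TGANTCA, the GC box GGGCGG, the PU.1 core AGGAAGT, the TATA box TATAAA and the CArG box bound by serum response factor. Among 32851 mouse promoters of that length, 6.75% held the AP-1 letters, 32.7% the GC box, 7.69% the PU.1 core, 12.4% the TATA box and 1.47% a CArG box. The printed P2ry14 stretch holds 1 AP-1 match, the P2rx7 stretch 1 AP-1 match and 1 GC box, the P2ry1 stretch 2 GC boxes, and the P2rx4 stretch none of the 5. No CArG box was in the windows of the 7 members that had an entry; P2rx5 and P2ry6 were the other members.

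**Figure D1:**
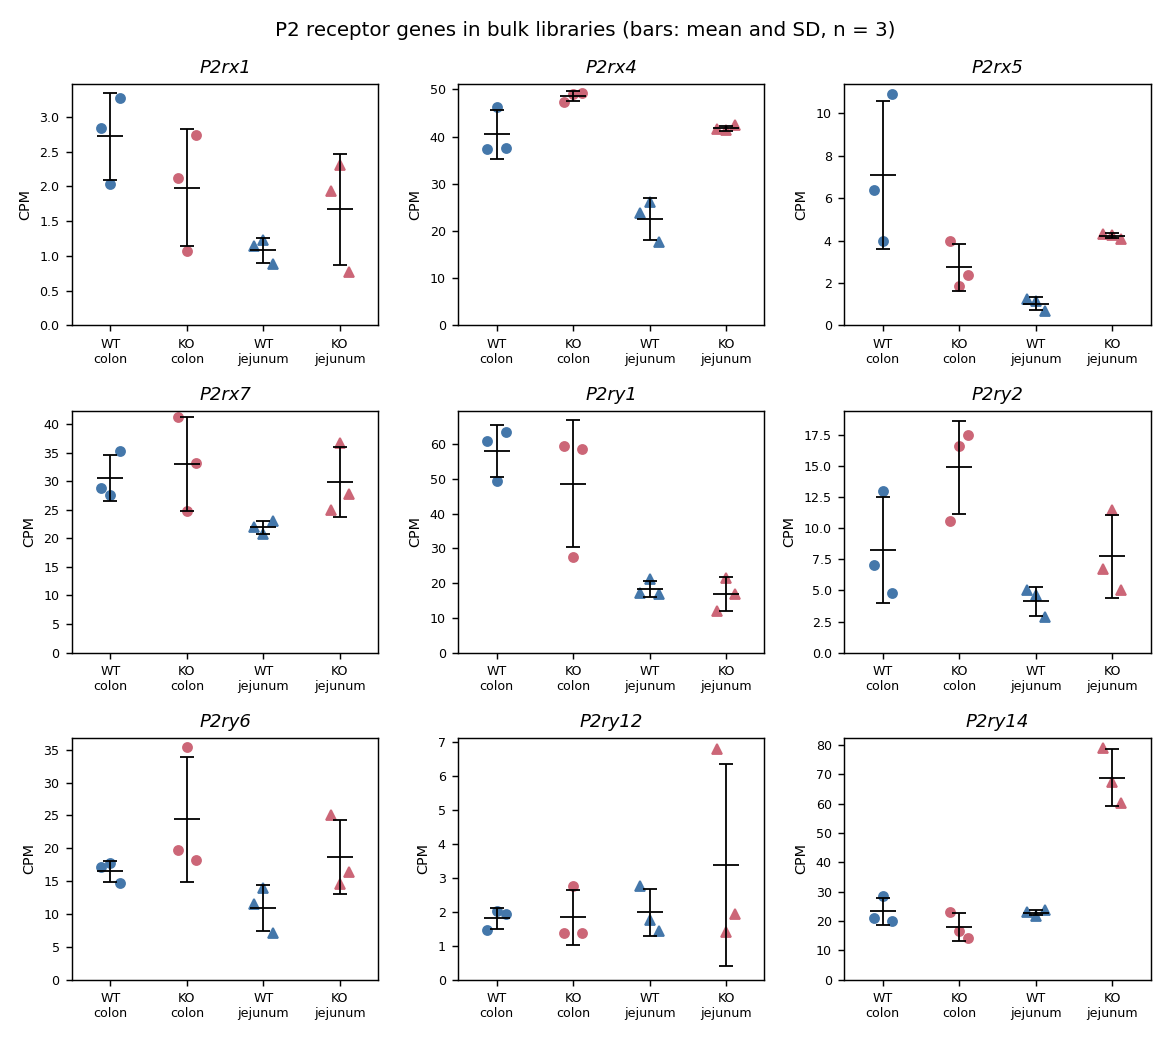
CPM of each P2 receptor gene in every bulk library (points), with the mean and SD of each group of 3 (black), WT in blue and KO in red, colon as circles and jejunum as triangles. P2ry14 in KO jejunum, at 60.1 to 79.1 CPM, stands above every other library, and P2rx5 is lower in KO than in WT colon but higher in KO than in WT jejunum.

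Among the 9 members, P2ry1 had the highest mean level per length of exon in both WT tissues. P2ry1, the Gq-coupled ADP receptor, stood at 13.5 ± 1.74 CPM per kb in WT colon and 4.26 ± 0.559 in WT jejunum (SD, n = 3 in each group here and below). In WT colon it was followed by P2rx4 (5.76 ± 0.727 CPM per kb), P2ry6 (5.72 ± 0.563) and P2rx7 (5.12 ± 0.686), whose spreads overlapped, then by P2rx5 (2.96 ± 1.46), P2ry2 (2.10 ± 1.09) and P2ry14 (2.10 ± 0.414), which overlapped as well, and by P2rx1 (1.04 ± 0.241) and P2ry12 (0.712 ± 0.124). In WT jejunum the spreads of P2ry1, P2ry6 (3.78 ± 1.19 CPM per kb), P2rx7 (3.67 ± 0.191) and P2rx4 (3.20 ± 0.627) overlapped, and P2rx1 (0.412 ± 0.0686) and P2rx5 (0.429 ± 0.123) were lowest. Outside the list, P2rx2 (5.72 ± 0.425 CPM per kb) and P2rx6 (5.38 ± 0.759) had higher means than P2ry1 in WT jejunum. In WT colon P2rx2 was at 11.1 ± 3.75 CPM per kb, a spread that overlapped that of P2ry1. The annotated exons of P2ry14 add up to 11059 bases, of which a single block covers 7795, so its level per length depends on that transcript model.

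P2ry1 and P2rx4 were higher in WT colon than in WT jejunum. P2ry1 was at 60.9, 49.4 and 63.4 CPM in the WT colon libraries t1, t6 and t7 and at 17.1, 21.0 and 16.7 CPM in the WT jejunum libraries of the same tags. Every colon library was above every jejunum library, and the log2 difference was 1.66 (SE 0.30, edgeR quasi-likelihood adjusted p = 0.0220). P2rx4, a fast ATP-gated channel that also sits in lysosomes, was at 37.4, 46.4 and 37.6 CPM in WT colon and 23.8, 26.1 and 17.6 CPM in WT jejunum, with no overlap (log2 difference 0.85, SE 0.16, adjusted p = 0.0296). These 2 were the members called among the 7 that were not chosen for a tissue difference; of all genes tested, 0.694% were called higher in WT colon and 1.56% in either direction. Both calls rest on 3 libraries a group: without any single library the adjusted p of P2rx4 was 0.0625 to 0.138, and that of P2ry1 was 0.0493 to 0.112, below 0.05 only without WT colon t6.

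Of the 7 members, 5 had every WT colon library above every WT jejunum library, against 11.2% of all genes. The median log2 difference of the 7 was 0.85 beside 0.04 for all genes. As the list was drawn up with earlier results of these data known, these values are a description of the listed genes. P2rx1, the rapidly desensitising ATP channel of smooth muscle and platelets, was at 2.84, 2.03 and 3.28 CPM in WT colon and 1.14, 1.22 and 0.879 CPM in WT jejunum (log2 difference 1.33, SE 0.47, edgeR adjusted p = 0.226). P2rx7, the channel opened by high ATP, differed by 0.48 (SE 0.21, adjusted p = 0.352) and the UDP receptor P2ry6 by 0.60 (adjusted p = 0.467). P2ry2, which answers to ATP and UTP, differed by 0.999 (SE 0.42, adjusted p = 0.327) and its groups overlapped. Its 3 WT colon values of 7.01, 13.02 and 4.76 CPM had the same order as the summed level of 8 epithelial markers in those libraries, 1709, 3571 and 81.7 CPM, whose part in the result was not tested. P2rx4 was at 37.4, 46.4 and 37.6 CPM in the same libraries, and the part of the epithelial markers in its tissue difference was not tested either.

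P2rx5 was the member with the widest gap between tissues. It encodes a P2X subunit that can assemble with P2X1. It was at 6.40, 3.98 and 10.9 CPM in the WT colon libraries t1, t6 and t7 and at 3.97, 1.87 and 2.36 CPM in the KO colon libraries m1, t4 and t6. The highest KO value lay just under the lowest WT value, so the colon groups did not overlap but nearly touched; 10.4% of all genes had every KO colon library below every WT colon library, a share from which nothing is read here. In jejunum the order was the other way: 1.25, 1.14 and 0.693 CPM in WT and 4.31, 4.26 and 4.10 CPM in KO, with a wide gap. The log2 change was -1.37 (SE 0.42) in colon and 2.04 (SE 0.43) in jejunum, a difference of -3.41 (SE 0.60). As P2rx5 was listed for this pattern, these values are a description and carry no test. WT colon exceeded WT jejunum by 2.79 (SE 0.44) on the log2 scale.

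P2ry14, the Gi-coupled receptor for UDP-glucose and related UDP-sugars, had in KO jejunum 3.01 times its WT level. It was at 79.1, 67.5 and 60.1 CPM in the KO jejunum libraries m1, t1 and t4 and at 23.2, 21.8 and 23.6 CPM in WT jejunum. Each KO jejunum value was above all 9 other libraries. In colon it was at 23.1, 16.5 and 14.2 CPM in KO and 21.1, 28.5 and 20.1 CPM in WT, and the groups overlapped. The log2 change was 1.59 (SE 0.21) in jejunum and -0.37 (SE 0.21) in colon, a difference of -1.96 (SE 0.30), given without a test because the gene was listed for it. WT colon and WT jejunum differed by 0.02 (SE 0.21).

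Summed levels of some cell type marker lists also differed between KO and WT libraries. The summed level of 8 smooth muscle markers was 33116 to 43914 CPM in KO colon against 46976 to 68118 in WT colon, with 5 of the 8 markers lower in every KO library, and 41726 to 88915 CPM in KO jejunum against 37738 to 41396 in WT jejunum, with 2 of 8 higher in every KO library. The summed level of 8 macrophage markers was 563 to 1248 CPM in KO jejunum against 180 to 382 in WT jejunum, with 7 of 8 higher in every KO library, and 399 to 852 against 338 to 496 in colon, with 1 of 8. No marker of these 2 lists was at 0 in any group and none of them was called in either tissue. Summed levels of other lists were also apart. Skeletal muscle markers were at 20.6 to 28.8 CPM in KO against 76.0 to 117 in WT colon, with 4 of 6 lower in every KO library. Of these, 1, Ckm, was called (log2 change -1.76, edgeR adjusted p = 0.0320). In jejunum their sum was 41.8 to 93.9 against 116 to 129 CPM, but the markers were split. There 1 of 6 was higher and 1 lower in every KO library, and the median log2 change was 0.30. B lymphocyte markers were at 15.6 to 18.5 CPM in KO against 21.6 to 27.5 in WT colon. In jejunum, pericyte or mural markers summed to 2170 to 3504 CPM in KO against 4095 to 5487 in WT. Of these 6 markers, however, 2 were higher and 1 lower in every KO library, and their median log2 change was 0.40. Enteric neuron markers were at 402 to 503 against 521 to 644 CPM in jejunum, with 2 of 8 lower in every KO library. Endothelial markers were at 282 to 513 against 117 to 260, with 2 of 7 higher. The part of these markers in the P2rx5 and P2ry14 values was not tested, and in bulk tissue a different number of cells of a type and a different amount of RNA per cell cannot be told apart. Without KO colon t4 and KO jejunum m1, the change of P2rx5 was -1.15 in colon and 2.002 in jejunum, and that of P2ry14 was -0.30 and 1.45. P2ry14 lies inside the span of Med12l, which runs on the opposite strand (chr3:59005825-59318682) and shares 0 exonic bases with it. Med12l was lower in KO than in WT jejunum, 13.3 ± 2.72 against 26.7 ± 6.08 CPM (log2 change -1.003, edgeR adjusted p = 0.152), opposite in direction to P2ry14.

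**Figure D2:**
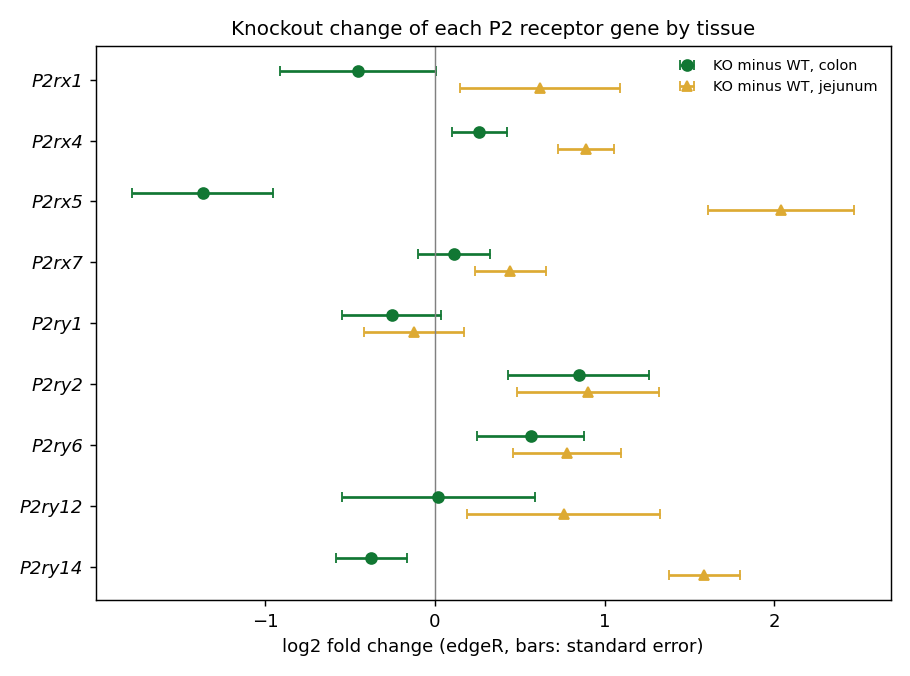
Log2 fold change of each P2 receptor gene, KO minus WT, in colon (green circles) and jejunum (yellow triangles), with standard errors from edgeR. P2rx5 and P2ry14 lie below 0 in colon and above 0 in jejunum; P2ry2 and P2ry6 lie above 0 in both tissues, and none of the 7 other members was called.

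In jejunum, none of the 7 other members was called at an adjusted p of 0.05 (edgeR; 0.215% of all genes were), and 2 had an unadjusted p under 0.05, as did 13.2% of all genes. DESeq2 and limma voom each called 1, P2rx4, while they called 3.95% and 0.364% of all genes. P2rx4 was at 41.6, 41.4 and 42.4 CPM in KO jejunum, all above the WT values of 23.8, 26.1 and 17.6 CPM given above (log2 change 0.89, SE 0.16, edgeR adjusted p = 0.0606, DESeq2 2.02e-04, limma voom 0.0486). Its KO jejunum values lay within the WT colon range of 37.4 to 46.4 CPM. P2ry6 was the other with an unadjusted p under 0.05: 25.1, 14.6 and 16.5 CPM in KO and 11.5, 14.01 and 7.19 CPM in WT jejunum (log2 change 0.78, SE 0.32, adjusted p = 0.328). In 4 of the 7, P2rx4, P2rx7, P2ry2 and P2ry6, every KO jejunum library was above every WT library, against 11% of all genes. The median change over the 7 was 0.76 beside 0.02 for all genes, with 6 of 7 above 0 beside 51.5% of all genes. The list was drawn up with earlier results of these data known, so these shares describe the listed genes only. The macrophage and endothelial marker levels above were higher in KO jejunum too, and their part in these values was not tested.

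P2rx7 was at 24.97, 36.7 and 27.7 CPM in KO jejunum and 21.95, 20.7 and 22.99 CPM in WT jejunum (log2 change 0.44, adjusted p = 0.396 by edgeR). P2ry2 was at 6.70, 11.5 and 5.07 CPM in KO and 5.01, 4.60 and 2.82 CPM in WT jejunum (0.90, SE 0.42, adjusted p = 0.385), the lowest KO library being barely above the highest WT library. P2ry12, the Gi-coupled ADP receptor of platelets and microglia, was at 6.80, 1.401 and 1.95 CPM in KO jejunum and 2.76, 1.75 and 1.44 CPM in WT jejunum. Its change of 0.76 rested on library m1, the KO jejunum library that stood apart, and was -0.27 without m1. Library m1 had the highest macrophage, smooth muscle and Pdgfra fibroblast marker levels of the jejunum libraries (1248, 88915 and 7825 CPM), whose part in the P2ry12 value was not tested. P2rx1 differed by 0.62 (SE 0.47) and P2ry1 by -0.12 (SE 0.29) in jejunum. The KO libraries of P2ry1, 11.8 to 21.5 CPM, enclosed the WT range of 16.7 to 21.0 CPM.

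In colon, none of the 7 was called by edgeR (0.388% of all genes were), by DESeq2 (5.01%) or by limma voom (0.455%), and none had an unadjusted p under 0.05 in edgeR, against 14.5% of all genes. Over these 7 genes, listed with earlier results of these data known, the median change was 0.11 beside 0.004 for all genes. In 2 of them every KO library was above every WT library, against 8.79% of all genes. These were P2rx4, at 47.3, 49.0 and 49.4 CPM in KO and up to 46.4 CPM in WT (log2 change 0.26, SE 0.16, edgeR adjusted p = 0.501), and P2ry6, at 19.7, 35.4 and 18.2 CPM in KO and 17.1, 17.8 and 14.7 CPM in WT (0.57, SE 0.32, adjusted p = 0.449). The 35.4 CPM of P2ry6 came from library t4, which had the highest macrophage marker level of the colon libraries. It also had the highest Pdgfra fibroblast marker level, 13004 CPM against 2712 to 6023 in the other colon libraries. The part of any of these markers in the P2ry6 value was not tested. P2ry2 was at 10.6, 16.6 and 17.5 CPM in KO against the WT values above, and overlapped them (0.85, SE 0.42, adjusted p = 0.382).

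P2ry1 in colon turned on a single library. It was at 59.5 and 58.6 CPM in KO libraries m1 and t6, within the WT range of 49.4 to 63.4 CPM, and at 27.4 CPM in t4. The log2 change was -0.25 (SE 0.29, edgeR adjusted p = 0.754) with t4 and 0.03 without it. P2rx1 was at 2.13, 1.08 and 2.73 CPM in KO colon (-0.45, SE 0.46). P2rx7 ranged from 24.7 to 41.2 CPM in KO and from 27.6 to 35.2 in WT colon (0.11), and P2ry12 from 1.37 to 2.78 and from 1.45 to 2.03 CPM (0.02).

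The change in colon was below that in jejunum for all 9 members, of which P2rx5 and P2ry14 were listed for that difference. The values ran from -0.05 in P2ry2 to -3.41 in P2rx5, beside a median of -0.03 for all genes. The 7 members other than P2rx5 and P2ry14 ran from -0.05 to -1.07 (P2rx1, SE 0.66). The difference for P2rx4 was -0.63 (SE 0.23), and that for P2ry12, -0.74, was 0.32 without KO jejunum library m1. With 1 library left out, the difference also turned sign for P2ry1 (up to 0.15), P2ry2 (up to 0.47) and P2ry6 (up to 0.11). No test is given for these differences, and their shared sign is a description only, since the list was drawn up with this contrast in view.

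The nuclei libraries placed the receptors in different cells of the colon wall. After filtering, 2638 WT and 1593 KO nuclei remained, with medians of 1698.5 and 1985 UMIs, and 4 barcodes were shared between the libraries. They formed 22 clusters, of which 18 were named from marker genes. As the genes described were among those used to cluster, levels by cluster are a description. With 1 library per genotype, nothing between KO and WT nuclei was tested, and the 95% intervals, exact Poisson, cover counting error only. Levels in nuclei are CPM of gene UMIs. All 9 genes were sparse, from 1103 UMIs in all nuclei together for P2rx4 to 11 for P2ry2.

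**Figure D3:**
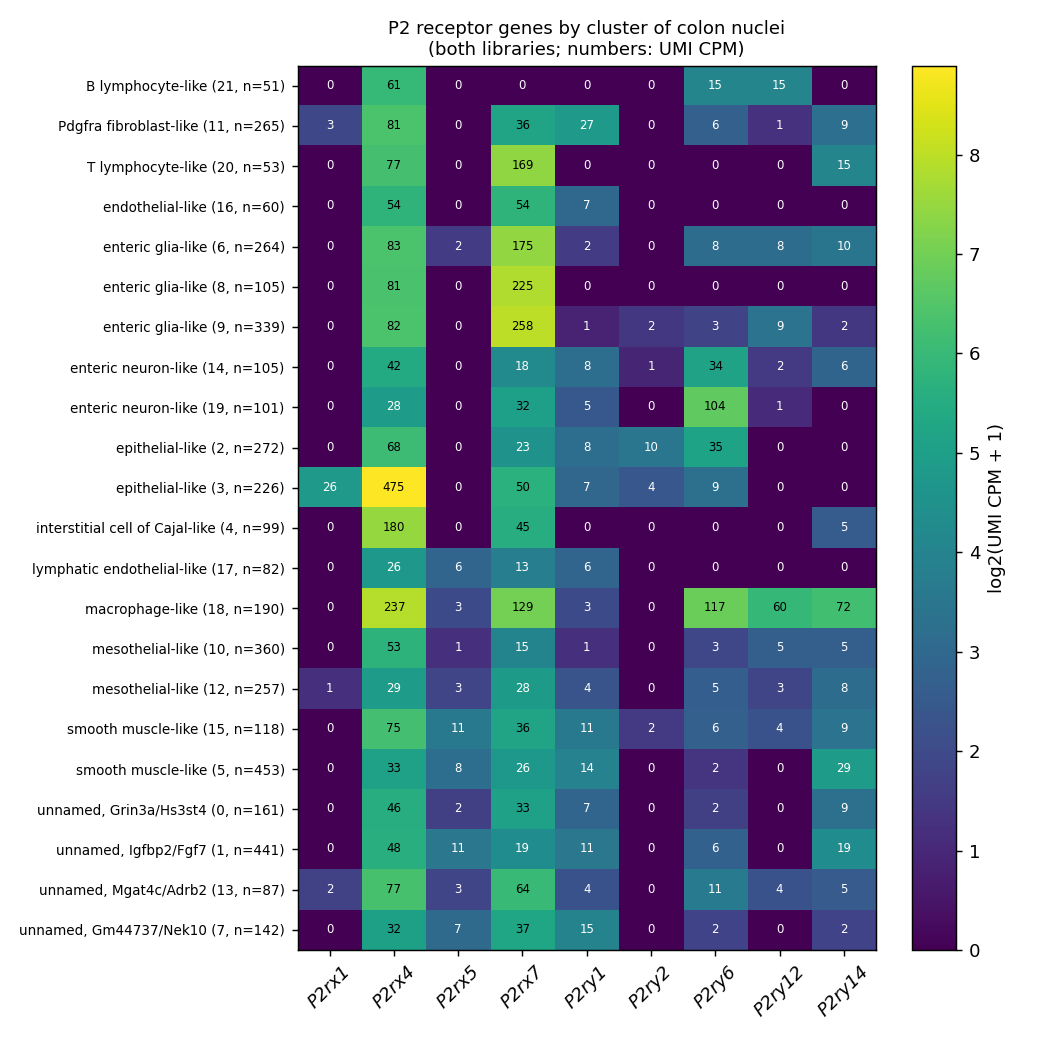
CPM of each P2 receptor gene (columns) in each of 22 clusters of colon nuclei (rows; cluster number and number of nuclei in brackets), both libraries together; colour gives log2(UMI CPM + 1). P2rx7 is highest in the 3 enteric glia-like clusters, P2rx4 in epithelial-like cluster 3, and P2ry6, P2ry12 and P2ry14 in the macrophage-like cluster.

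Among the P2X genes, P2rx4 was found in all 22 clusters. It was highest in an epithelial-like cluster led by 9030622O22Rik, Anxa13 and Fer1l6 (475 CPM, 95% interval 414 to 542, 217 UMIs), followed by macrophage-like nuclei (237, 188 to 296) and interstitial cell of Cajal-like nuclei, the pacemaker cells (180, 126 to 250). The other epithelial-like cluster, led by absorptive genes such as Slc26a3, held 68.0 (46.8 to 95.5) and the main smooth muscle-like cluster 33.1 (24.1 to 44.5). P2rx7 was concentrated in enteric glia-like nuclei, the support cells of the enteric ganglia. Their 3 clusters held 175, 225 and 258 CPM, and together 442 of the 926 P2rx7 UMIs. T lymphocyte-like (169, from 11 UMIs) and macrophage-like nuclei (129, 93.4 to 174) came next, while the median over clusters was 35.6.

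P2rx1 and P2rx5 were scarcer. Of 21 P2rx1 UMIs, 12 came from the epithelial-like cluster led by Anxa13, and 18 of 22 clusters held none. P2rx5 had 45 UMIs, of which 31 lay in the 4 clusters where at least 5 of the 8 smooth muscle markers were raised at least 2-fold. Those clusters are 2 smooth muscle-like ones, an unnamed cluster led by Igfbp2 and Fgf7 and an unnamed cluster led by Gm44737 and Nek10. P2rx5 stood at 9.38 CPM there (6.37 to 13.3) and was not seen in 11 of the 22 clusters. No P2rx1 UMI was found in the 1154 nuclei of the 4 clusters with smooth muscle markers (interval 0 to 1.12 CPM).

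Among the Gq-coupled P2Y genes, P2ry1 was highest in Pdgfra fibroblast-like nuclei (27.1 CPM, 16.3 to 42.3, 19 UMIs), the class that holds the Pdgfra-positive interstitial cells. It was at 12.7 (9.16 to 17.2) in the 4 clusters with smooth muscle markers, and no UMI was found in the 99 interstitial cell of Cajal-like nuclei (interval 0 to 18.5). P2ry6 was highest in macrophage-like nuclei (117, 83.3 to 160) and nearly as high in enteric neuron-like nuclei led by Nos1, the neurons that make nitric oxide (104, 83.7 to 127, 92 UMIs). The second enteric neuron-like cluster held 33.7 (23.7 to 46.5), an interval below that of the Nos1 cluster, while smooth muscle-like nuclei held 2.68 (0.871 to 6.26). P2ry2 had 11 UMIs, 5 of them in the epithelial-like cluster led by absorptive genes.

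The Gi-coupled members shared their top cluster. P2ry12 was at 60.1 CPM in macrophage-like nuclei (36.7 to 92.8), from 20 of its 58 UMIs, and at 0 in 11 of 22 clusters. P2ry14 was at 72.1 there (46.2 to 107), with 24 of its 138 UMIs. P2ry14 was also at 29.4 (20.9 to 40.1) in the smooth muscle-like cluster led by Colec10 and Actn2 and at 19.3 (11.8 to 29.8) in the cluster led by Igfbp2 and Fgf7, against a median of 5.23 over clusters. Its UMIs in muscle outnumbered those in macrophage-like nuclei: 65 lay in the 4 clusters with smooth muscle markers, which hold more nuclei. Macrophage-like nuclei numbered 50 in the WT and 140 in the KO library.

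**Figure D4:**
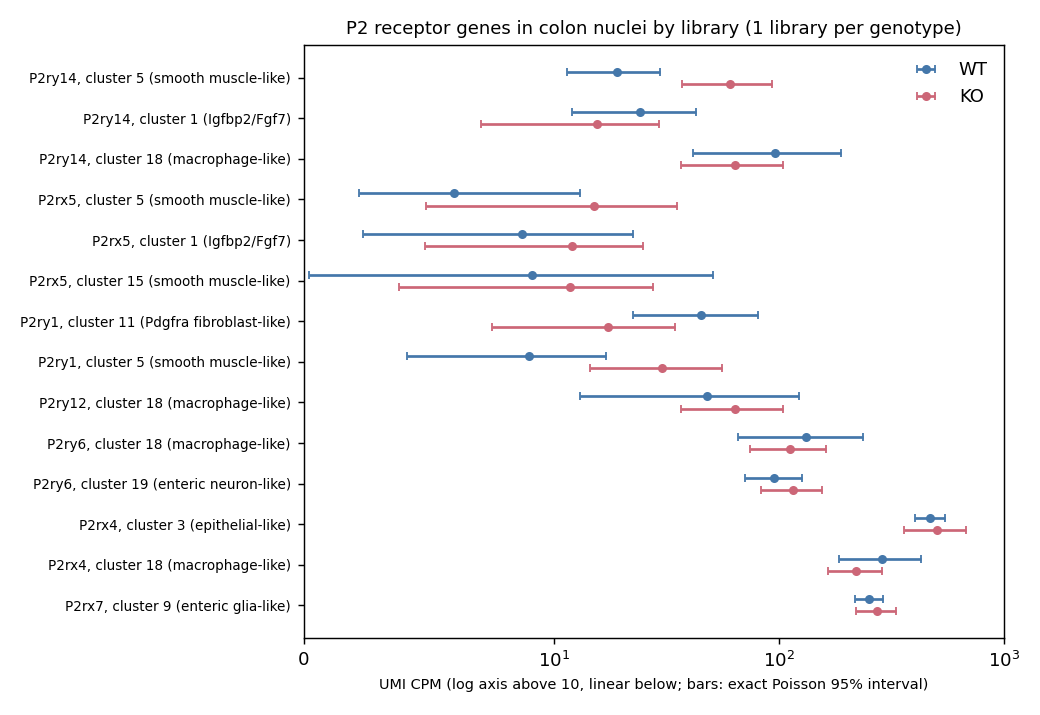
CPM in the WT (blue) and KO (red) colon nuclei library for 14 pairs of gene and cluster, chosen after their values were seen, with exact Poisson 95% intervals; the axis is linear below 10 and logarithmic above. The intervals overlap in every pair except P2ry14 in the smooth muscle-like cluster 5.

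Between the 2 nuclei libraries, P2ry14 in the smooth muscle-like cluster led by Colec10 and Actn2 was at 19.04 CPM in WT (11.5 to 29.7, 19 UMIs in 336 nuclei) and 60.5 in KO (37.0 to 93.4, 20 UMIs in 117 nuclei). Over all 4 clusters with smooth muscle markers it was at 15.8 (10.7 to 22.4) in WT and 25.3 (17.5 to 35.4) in KO, and these intervals overlapped. The smooth muscle nuclei of the 2 libraries fell into different clusters: the cluster led by Gm44737 and Nek10 held 141 WT nuclei and 1 KO nucleus. Over the same 4 clusters P2rx5 was at 7.13 (3.90 to 11.96) in WT and 12.7 (7.38 to 20.3) in KO. In the bulk colon libraries the log2 changes were -1.37 for P2rx5 and -0.37 for P2ry14, whose groups overlapped there. P2ry1 in Pdgfra fibroblast-like nuclei was at 45.1 (22.5 to 80.7) in WT and 17.5 (7.54 to 34.4) in KO.

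P2rx7 in the largest enteric glia-like cluster was nearly level between the libraries, at 252 (218 to 289) in WT and 271 (221 to 330) in KO. P2rx4 in the epithelial-like cluster led by Anxa13 was at 469 (402 to 544) and 501 (360 to 680). P2ry6 in the neurons led by Nos1 was at 95.6 (70.7 to 126) in WT and 115 (83.4 to 155) in KO.

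The nuclei matrices also list accessible regions, called per library, 35003 in WT and 26493 in KO. Within 3000 bases of their spans, P2rx4, P2ry1 and P2ry2 had a region over a RefSeq start in both libraries. For P2rx4 it spanned chr5:122707281-122708193 in WT and chr5:122707332-122708222 in KO, with 201 and 83 counts, or 79.5 (68.9 to 91.3) and 55.6 (44.3 to 69.0) per 1000000 region counts. For P2ry1 it spanned chr3:61002227-61003140 and chr3:61002445-61003461, with 155 and 95 counts, or 61.3 and 63.7 on the same scale. P2rx1 and P2rx7 had such a region in the WT list only, P2ry6 and P2ry12 a region within the gene in the WT list only, and P2rx5 and P2ry14 none in either. The KO list is shorter and from fewer nuclei, and the part of that in the regions listed for WT only was not tested. Among region values in the matrices, 11.6% in WT and 11.5% in KO were odd, so most were even, and they were not halved. The intervals on region counts take single counts as independent and so may be too narrow.

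Other genes of purine signalling were taken as 6 lists of 42 genes, of which 41 were tested. In colon, 1 of 41 was called lower and none higher; in jejunum none was called; and 6 in jejunum and 9 in colon had an unadjusted p under 0.05 (edgeR), beside the 13.2% and 14.5% of all genes given above. The gene called in colon, where 0.273% of all genes were called lower, was Dpp4, the membrane peptidase that anchors adenosine deaminase, at 15.3 ± 2.50 CPM in KO and 53.4 ± 17.6 in WT (log2 change -1.81, SE 0.30, edgeR adjusted p = 0.0326). The edgeR call was lost in 4 of 6 fits with a library left out (WT t6 or t1, or KO t6 or t4; adjusted p 0.0176 to 0.146 over the 6), with the 6 colon libraries alone (0.141) and without KO colon t4 and KO jejunum m1 (0.0586), and the log2 change ran from -2.03 to -1.57. In the nuclei Dpp4 was highest in mesothelial-like nuclei (1045 and 673 CPM in their 2 clusters), and the summed level of 6 mesothelial markers was 128 to 254 CPM in KO colon against 159 to 424 in WT colon; its part was not tested. The median change over the 41 was -0.10 in colon and -0.16 in jejunum, beside 0.004 and 0.02 for all genes.

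Among the other P2 receptors, 0 of 7 tested were called in either tissue. In colon, 0 of these 7 had a log2 change above 0 (median -0.46), beside 50.3% of all genes. In jejunum, 4 of the 7 did (median 0.42), beside 51.5% of all genes. The colon median of 0.11 over 7 listed members, none of them called, leaves out P2rx5 (-1.37) and P2ry14 (-0.37). Both of these were below 0 in colon, so no difference between the listed and the other P2 receptors is read from these medians. P2rx6 was at 7.29 ± 1.90 CPM in KO and 21.5 ± 3.03 in WT jejunum (log2 change -1.56, SE 0.40, edgeR adjusted p = 0.144) and at 3.03 ± 1.83 and 5.22 ± 1.30 in colon. It was lower in WT colon than in WT jejunum (-2.04, SE 0.41, edgeR adjusted p = 0.0342), the reverse of P2rx4 and P2ry1. That call was lost in 5 of 6 fits with a library left out, all but WT colon t7 (edgeR adjusted p 0.0470 to 0.142), with the tag block (0.234) and with scaling by total counts only (0.0587). P2rx2, a channel of enteric neurons, was at 9.65 ± 1.93 CPM in KO and 14.7 ± 1.09 in WT jejunum, and P2ry10b was at most 1.27 CPM in any library.

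None of the 4 adenosine receptors was called. Adora1 was at 13.7 ± 0.959 CPM in KO and 10.3 ± 0.448 in WT colon, Adora2b reached 10.4 CPM in a single KO colon library, and Adora3 was at most 4.30 CPM in any library. Of 9 ectonucleotidases, which break down extracellular nucleotides, none was called. Enpp3 was at 6.65 ± 2.55 CPM in KO and 48.1 ± 35.4 in WT colon, Enpp1 at 105 ± 41.2 and 67.5 ± 2.61, and Entpd3 at 12.3 ± 0.300 in KO and 18.9 ± 2.38 in WT jejunum. Of 6 genes of ATP release none was called in either tissue; the volume-regulated anion channel subunit Lrrc8a was closest, at 32.7 ± 6.53 CPM in KO and 18.8 ± 0.430 in WT colon (log2 change 0.80, SE 0.18, edgeR adjusted p = 0.0921). Slc17a9, the vesicular nucleotide transporter, and Panx1 differed by 1.06 and 0.25 in colon.

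Of the 5 genes of adenosine removal, Dpp4 alone was called. Adenosine kinase, Adk, was at 41.2 ± 4.68 CPM in KO and 70.1 ± 10.99 in WT jejunum (log2 change -0.77, SE 0.19, edgeR adjusted p = 0.128). Ada was at 6.82 ± 2.70 CPM in KO and 68.7 ± 57.6 in WT colon. None of 10 effectors downstream of the P2Y receptors was called by genotype. Kcnn2, a small-conductance potassium channel, was at 7.61 ± 4.27 CPM in KO and 20.6 ± 6.37 in WT colon and at 4.94 ± 2.79 and 15.3 ± 3.93 in jejunum (adjusted p = 0.243 and 0.226 by edgeR). Plcb4 was at 172 ± 75.1 and 303 ± 37.6 CPM in colon, and Itpr1 at 190 ± 66.6 and 276 ± 54.5. Between the WT tissues 1 of the 41 was called higher in colon and 3 lower, beside 0.694% and 0.862% of all genes. The gene called higher was Plcb1, a phospholipase activated by Gq, at 120 ± 23.8 CPM in colon and 29.0 ± 1.91 in jejunum (log2 difference 2.04, edgeR adjusted p = 0.00364), in the same direction as P2ry1. It was called in all 6 fits with a library left out (edgeR adjusted p up to 0.0309). The 3 called lower were P2rx6, given above, Gja1 of the ATP release list and Adk. Gja1 differed by -1.53 (edgeR adjusted p = 0.00719) and was called in all 6 such fits (up to 0.0425), but the call was lost in 1 of 8 other alternatives. Adk differed by -1.06 (edgeR adjusted p = 0.0220) and was called in 2 of the 6 fits with a library left out. Its call was also lost in 1 of the 8 other alternatives.

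Genes most like each member were ranked by Pearson correlation of log2 CPM over the 12 bulk libraries among 14763 genes. These correlations mix tissue, genotype and library composition and are given as a description. P2ry1 was most like Dgkh (r = 0.981), Trhde (0.972) and Prkca (0.968). P2ry14 was most like Eps15 (r = 0.942), Ccng1 (0.913) and Txlnb (0.910), and P2rx5 was most like Gria3 (0.934) and Reep3 (0.912). P2ry6 was most like Fes (0.960), Stab1 (0.957) and Fxyd5 (0.956). In the nuclei, Fes and Stab1 were, as was P2ry6, highest in the macrophage-like cluster, at 87.1 and 736 CPM.

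P2rx4 was most like Clca3a1 (r = 0.920), Fam57a (0.916) and Kcnk6 (0.911), and P2ry2 was most like Hsd11b2 (0.923), Blnk (0.919) and Trib3 (0.919). P2rx1 was most like Myzap (0.887), Enpp2 (0.886) and Entpd2 (0.882), P2rx7 most like Atp9b (0.902), R74862 (0.895) and Nxpe3 (0.888), and P2ry12 most like Eif3i (0.971). Among the members, P2rx4 ran most closely with P2ry6 (r = 0.828) and P2ry2 (0.824), and P2ry14 ran against P2ry1 (-0.609).

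The counting leaves limits for some members. P2ry1 shares 992 exonic bases, 23.1% of its exon length, with the antisense transcript Gm37035, and no label or header used here says whether counting used strand. P2ry12 also lies within the span of Med12l on the other strand, sharing 9 exonic bases, and P2rx7 contains the microRNA gene Mir8115 (119 bases). P2ry6 spans Gm44545, with 0 shared exonic bases. P2rx1, P2rx4, P2rx5 and P2ry2 overlap no annotated gene; their nearest genes on the same strand are Camkk1, P2rx7, Tax1bp3 and Gm45070.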

How the data were processed

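The authors' deposited table holds read counts per gene for the 12 bulk libraries, with no normalization; the processing notes name STAR 2.0.4b, Subread, featureCounts 1.4.5, edgeR and Cell Ranger and the builds GRCm38 and mm10, per the submitters' processing notes, without a role or order. Strand setting and annotation version were not stated in what was used here. Of 40757 entries, 276 repeated IDs were dropped. The deposited nuclei matrices hold counts per nucleus of genes and of accessible regions, per the file headers; every gene value was even and was divided by 2. The members and gene lists were chosen with earlier results of these data known.

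Genes kept by filterByExpr were fitted over all 12 libraries with edgeR 4.0.16 (TMM, robust quasi-likelihood, R 4.3.3), with contrasts for KO against WT in each tissue and for the WT tissues, Benjamini-Hochberg adjustment over all 20886 genes and a threshold of 0.05. CPM use TMM-scaled totals, and CPM per kb divide by the summed exon length in GENCODE M21. P2rx5 and P2ry14 were given no p-value, and no p-value was adjusted over the members alone. Genes named beside the members follow 3 rules: overlapping or nearest same-strand gene, the 3 most correlated genes (not all are reported here), and from each pathway list the 3 with the smallest p in either tissue. Plcb1 and Gja1 were named after their values were seen, and Med12l and Carmn as limits. The script was checked on simulated data.

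Nuclei with at least 500 UMIs, 300 genes and under 5% mitochondrial UMIs were kept (3476 WT and 2164 KO barcodes before, of which 11 were shared) and clustered together (scanpy 1.11.5, Leiden resolution 1). Scrublet marked 1 barcode per library, so doublets were in effect not removed. Alternatives were another scaling, no filter, DESeq2 1.42.0, limma 3.58.1 voom, each contrast's 6 libraries alone, each library left out, a tag block, and for nuclei at least 1000 UMIs, resolution 0.5 and doublets kept; leaving out KO colon t4 and KO jejunum m1 together was chosen after seeing the data.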

Additional observations from a re-analysis of the deposited data

Results flagged for a closer look

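P2rx5 stood out because its change by genotype had opposite signs in the tissues: every KO colon library was below every WT colon library, and every KO jejunum library was above every WT jejunum library. The log2 change in colon minus that in jejunum was -3.41, a difference that was not tested, since the gene was listed for it. The gap between the colon groups was narrow, 3.97 against 3.98 CPM.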

How the results depend on the processing

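Among the 7 members tested, 0 were called in colon under every alternative. In jejunum the count of 0 became 1 (P2rx4) with DESeq2 and 1 with limma voom. Between the WT tissues the count of 2 became 1 without a filter on low counts (P2rx4 adjusted p 0.0557, edgeR) and 0 to 1 when a library was left out. With the replicate block on the tags it was 0 (adjusted p 0.173 for P2rx4 and 0.176 for P2ry1); the tags were not shown to pair libraries, as deviations of libraries with the same tag correlated at -0.163 to 0.100 and for no tag did both libraries correlate best with each other. KO and WT share too few tags for a block within a tissue. Small changes turned sign: with limma voom P2ry12 in colon was -0.090. With a library left out, colon ranges were -0.078 to 0.28 (P2rx7), -0.43 to 0.030 (P2ry1) and -0.39 to 0.22 (P2ry12), jejunum ranges -0.36 to 0.046 (P2ry1) and -0.27 to 1.12 (P2ry12), the range of P2ry12 between WT tissues -0.37 to 0.12, and that of its colon minus jejunum difference -1.15 to 0.32. With the 2 libraries that stood apart left out together, P2ry1 was 0.045 in colon and 0.046 in jejunum, and P2ry12 -0.38 and -0.26. P2rx5 and P2ry14 kept their signs within each tissue by genotype. With a library left out, P2rx5 ran from -1.74 to -0.90 in colon and 1.81 to 2.19 in jejunum, and P2ry14 from -0.60 to -0.18 and 1.45 to 1.67. These refits reuse the counts by which both genes were chosen, so the kept signs are a description and lend the pattern no support. Calls over all genes varied widely: 81 in colon (0 to 960 over the alternatives), 45 in jejunum (21 to 805, and 2 to 41 with a library left out) and 325 between WT tissues (29 to 1156). In nuclei, the named class with the highest level was the same in all 3 alternatives for the 8 members with at least 20 UMIs. The causes of these shifts were not tested. At 11 to 1103 UMIs per member, the nuclei limit the precision for P2rx1, P2rx5, P2ry2 and P2ry12.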
